A study of Mus musculus with 9 samples.

Results

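Of 4838 regions of the mouse genome at which CUT&RUN found tagged MyoD1 in every library, 215 dropped in rank when doxycycline (dox) was added to induce more MyoD1, which is 4.44% of them. A region was shared when overlapping or touching peaks merged into it from all 6 peak lists, out of 58309 merged regions. In each library the highest signal in a region was turned into a percentile among the shared regions, and a region was taken as falling when its highest +dox percentile lay below its lowest no dox percentile. The opposite rule took 172 rising regions, 3.56% of those shared. The count that other divisions of the 6 libraries would give was not computed. By the rule itself, a region without tied percentiles is falling under a single one of the 20 assignments of 3 and 3 libraries. This holds with or without a dox effect, so the 4.44% is no test of one. With libraries paired by replicate number, the percentile was lower with dox in all 3 pairs in 777 regions (16.1%), the 215 among them. The paired count in the other direction is not given, so the 16.1% is no test of a dox effect either. Members were chosen by the maximum signal of each library, so these percentiles and the signal behind them are given below as a description with no test.

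CUT&RUN releases and sequences the DNA around a protein that an antibody has bound in permeabilised nuclei. Here anti-Flag M2 bound MyoD1 in C2C12, a mouse myoblast line. One clonal line carried a 3xFlag-Halo tag on its own Myod1 gene and an inducible transgene for the same tagged protein. Its no dox cultures (3 biological replicates) were moved to differentiation medium alone, and its +dox cultures (3 biological replicates) were moved to it with dox and collected after 6 h. Both groups therefore carried tag, transgene and the switch to differentiation, and differed in dox. The antibody sees endogenous and induced MyoD1 alike. All values come from 1 clone, and dox itself and raised MyoD1 cannot be told apart within it. The 3 wild-type libraries, from cells with no Flag tag, were not analysed here. Peak lists hold no expression values, so the myoblast label could not be checked against marker transcripts.

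MyoD1 is a basic helix-loop-helix factor that turns on the muscle program. It pairs with E proteins and binds E-boxes, of which CAGCTG is the form it favours. The form CAGGTG, whose other strand reads CACCTG, is also bound by other factors of the family. It occupies many sites in myoblasts, in introns and intergenic enhancers as well as at promoters.

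The sequences at a few members show what stood under the maxima. They are the 4 members with the widest separation between the groups, the member with the highest no dox rank, a member in the integrin gene Itga3, and a member in the first part of Nfix. Each is the 200 bp around the median position of the 6 maxima, plus strand, GRCm38, from RefSeq, with CAGCTG in capitals, and likewise the form CAGGTG on either strand.
Intergenic, nearest 4930572O13Rik, chr14:25226626-25226825: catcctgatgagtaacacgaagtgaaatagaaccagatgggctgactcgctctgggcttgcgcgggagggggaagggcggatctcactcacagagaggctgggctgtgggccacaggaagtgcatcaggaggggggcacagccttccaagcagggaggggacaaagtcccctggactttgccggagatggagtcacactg
Bahcc1 intron, chr11:120262026-120262225: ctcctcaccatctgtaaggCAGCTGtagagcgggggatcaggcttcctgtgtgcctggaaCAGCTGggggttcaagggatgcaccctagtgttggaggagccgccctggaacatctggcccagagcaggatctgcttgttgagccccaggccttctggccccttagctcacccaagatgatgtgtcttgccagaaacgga
Pcf11 promoter, chr7:92670176-92670375: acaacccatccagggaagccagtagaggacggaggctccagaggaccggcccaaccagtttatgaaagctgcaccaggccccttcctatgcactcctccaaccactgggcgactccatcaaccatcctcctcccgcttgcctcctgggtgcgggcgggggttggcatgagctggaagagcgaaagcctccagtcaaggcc
Kremen1 intron, chr11:5244176-5244375: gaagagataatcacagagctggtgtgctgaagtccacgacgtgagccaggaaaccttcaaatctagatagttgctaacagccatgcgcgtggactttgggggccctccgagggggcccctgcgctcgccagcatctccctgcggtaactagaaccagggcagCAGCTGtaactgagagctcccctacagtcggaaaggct
BC034090 intron, chr1:155234176-155234375: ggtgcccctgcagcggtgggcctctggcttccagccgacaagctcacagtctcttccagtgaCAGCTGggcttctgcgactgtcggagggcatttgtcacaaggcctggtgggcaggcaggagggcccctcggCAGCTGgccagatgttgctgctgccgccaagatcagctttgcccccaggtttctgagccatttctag
Itga3 intron, chr11:95072876-95073075: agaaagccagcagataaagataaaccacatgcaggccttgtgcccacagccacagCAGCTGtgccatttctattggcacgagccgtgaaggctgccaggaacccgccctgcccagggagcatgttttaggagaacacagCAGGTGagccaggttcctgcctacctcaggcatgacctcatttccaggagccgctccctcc
Nfix intron, chr8:84793876-84794075: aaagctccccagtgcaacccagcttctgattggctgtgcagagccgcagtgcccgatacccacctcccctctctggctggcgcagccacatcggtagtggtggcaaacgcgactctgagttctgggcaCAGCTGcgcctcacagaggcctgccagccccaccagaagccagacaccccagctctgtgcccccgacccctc
The windows at 4930572O13Rik and Pcf11 held none of these E-box forms. Those in Bahcc1 and BC034090 held CAGCTG in 2 places each, those in Kremen1 and Nfix in 1 place, and that in Itga3 held 1 CAGCTG and 1 CAGGTG. These 7 windows thus differed in the E-box forms they held.

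The drop was one of rank, not of signal as deposited. Signal was coverage scaled by the authors to library size (CPM), with no spike-in. In bulk cultures, fewer cells with MyoD1 at a site and less MyoD1 there per cell cannot be told apart. The median percentile of the 215 members was 64.2, 67.5 and 69.7 in no dox replicates 1, 2 and 3. It was 37.8, 48.0 and 51.4 in +dox replicates 1, 2 and 3, so the groups were apart, as the rule requires. The median signal of the members was 10.7, 13.5 and 8.57 CPM without dox. With dox it was 13.2, 14.5 and 11.5 CPM, and the groups overlapped. Over all shared regions the median went from 7.91, 9.48 and 5.57 CPM to 17.4, 15.0 and 11 CPM. The members thus stood above the shared median in all 3 no dox libraries, below it in +dox replicates 1 and 2, and above it in +dox replicate 3. For the mean of log2 CPM in a group, +dox minus no dox, the median was 0.25 for falling, 1.58 for rising and 0.91 for all shared regions. Mean log2 CPM was lower with dox in 56 of the 215 members (26.0%), against 188 of all 4838 shared regions (3.89%). No shared region had all its +dox CPM values below all its no dox values (0%), whereas 1330 (27.5%) had them all above, 22 of the members (10.2%) among these.

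Libraries differed in depth, which sets how finely a rank can be read. The lists came from 2868000 to 8030000 alignments and held 9389 to 53661 peaks, with the highest of both in +dox replicate 3 and the lowest depth in +dox replicate 1. At the members the median maximum rested on 46, 60 and 40 alignments in no dox replicates 1, 2 and 3. In +dox replicates 1, 2 and 3 it rested on 38, 52 and 92. Between 92.0% and 98.8% of the shared maxima were even numbers of alignments, so molecules were taken as pairs of alignments. An exact 95% Poisson interval on the pairs then spanned a median of 38.6, 30.7 and 37.5 percentile points at the members without dox. With dox it spanned 33.1, 32.1 and 21.8 points. These intervals cover counting error only. Of the 215 members, 1 kept all 3 no dox intervals above all 3 +dox intervals, and 0 of the 172 rising regions did so the other way. With every alignment counted on its own these numbers were 8 and 1.

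That 1 member was the promoter of Hspa12a, which encodes a distant member of the heat shock protein 70 family (chr19:58859201-58861550). Its percentiles were 95.5, 96.9 and 97.5 without dox and 82.9, 90.7 and 90.9 with dox. Its CPM of 40.3, 55.5 and 34.7 without dox overlapped that of 43.9, 50.6 and 39.1 with dox. The other 7 that were apart by single alignments lay in an intron of Bahcc1, at the promoter of BC034090, in Sil1, at the promoter of Gm16240 in Dip2a, near Gm25614, near Tas1r2 and in Has2. These 8 were picked out after their values had been seen.

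Most members were separated by little. The gap between the lowest no dox and the highest +dox percentile had a median of 3.26 points and ran from 0.0207 to 20.3. It reached 1 point in 171 members, 5 points in 71 (33.0%) and 10 points in 23 (10.7%). The mean percentile fell by a median of 16.6 points, from a median of 66.8 to one of 44.6. The lowest no dox value was that of replicate 1 in 93 members, of replicate 2 in 63 and of replicate 3 in 59. The highest +dox value was that of replicate 1 in 54, of replicate 2 in 65 and of replicate 3 in 96. Members came from the whole range of ranks. With the shared regions in 4 equal classes by mean percentile, from the lowest class to the highest, 37 (3.06%), 55 (4.55%), 52 (4.30%) and 71 (5.87%) were members.

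Values just across the threshold were close to those just within it. Inside it with the smallest gaps were a region near Gm22902 and the promoter of Htra1, both at 0.0207 points, and a region in Gm36535 at 0.0310. Outside it were an intergenic region near Fgfr4 and an intron of Prrc2b, both at -0.0207, and the promoter of Anapc15 at -0.0310. Htra1, which encodes a secreted serine protease, stood at 58.0, 77.3 and 76.6 without dox and 58.0, 56.5 and 55.9 with dox. The intronic region of Prrc2b stood at 98.6, 98.5 and 98.2 and then at 97.0, 98.2 and 95.6.

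**Figure D1:**
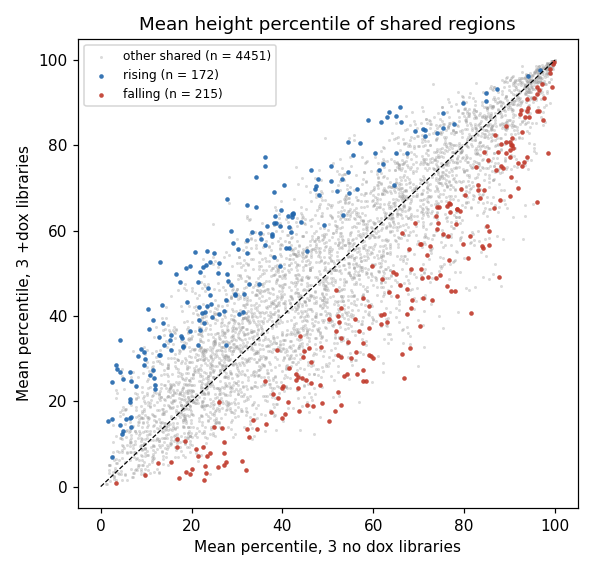
Mean percentile in the 3 no dox libraries against mean percentile in the 3 +dox libraries, with 1 point per shared region and the falling and rising regions coloured. Falling members lie below the diagonal at every height, with drops in the mean from 0.241 to 41.4 points.

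The 12 members with the largest gaps, between 13.2 and 20.3 points, were mostly of middling rank. They lay in introns (7), at promoters (3) or between genes (2), and 6 held CAGCTG within 100 bp of the maximum. Mean log2 CPM was lower with dox in 8. The largest gap was that of an intergenic region at -83485 bp from the start of the noncoding gene 4930572O13Rik (chr14:25225751-25228100). Its percentiles were 49.7, 45.1 and 59.9 without dox and 14.7, 13.4 and 24.8 with dox. On 7.91, 8.58 and 6.86 CPM without dox and 6.97, 6.67 and 6.23 CPM with dox, the groups overlapped by signal.

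Next came an intron of Bahcc1, a gene for a chromatin protein with a bromo-adjacent homology domain, where the nearest start is that of the microRNA gene Gm47297 (chr11:120260351-120264250). It went from 81.7, 83.6 and 86.6 to 44.3, 60.6 and 64.4. The promoter of Pcf11, which encodes a subunit of the pre-mRNA cleavage machinery (chr7:92669601-92670900), went from 60.4, 48.0 and 54.0 to 30.7, 23.7 and 24.8. Both were apart by percentile and overlapped by CPM.

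Introns of Kremen1, Apc and Daam1 were also among the 12. Kremen1 encodes a receptor for the Wnt antagonist Dickkopf, Apc a scaffold that holds beta-catenin low, and Daam1 a formin downstream of Dishevelled. The 3 were set together after they had been seen, and a shared pathway was not tested. The Kremen1 intron (chr11:5243801-5246300) stood at 66, 71.5 and 81.7 without dox and 42.1, 39.7 and 49.5 with dox. The Apc intron on chromosome 18 stood at 52.9, 75.7 and 71.8 and then at 11.7, 26.8 and 37.9, and its mean fell by 41.4 points, the most of any member. The Daam1 intron (chr12:71855351-71856650) stood at 55.6, 55.3 and 45.9 and then at 11.7, 23.7 and 31.2. The nearest start to the last is that of the pseudogene Gm7985. In all 3 the groups were apart, as the rule requires.

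The other 6 were 2 promoters and 4 regions in or between genes. An intron of Efhd1, which encodes a calcium-binding protein of mitochondria (chr1:87270251-87271600), was the lowest after dox. It went from 42.5, 29.2 and 24.3 to 0.537, 1.29 and 9.50 and rested on 8 alignments in +dox replicate 1. An intron of Nfic, a nuclear factor I gene (chr10:81410351-81414650), went from 46.0, 61.7 and 67.3 to 25.7, 32.8 and 16.0. In both the groups stood well apart in percentile, and both also fell in rank of total signal. The remaining regions were an intron of Mettl24, a shared promoter window of Gm49731 and Pigz, an intergenic region 55153 bp from Syf2, and the promoter of A630001O12Rik, whose gaps lay between 13.5 and 16.3 points.

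**Figure D2:**
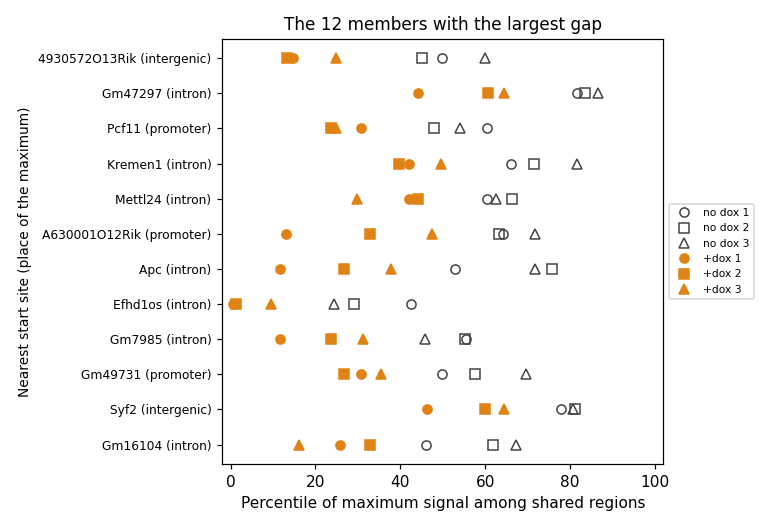
Percentile among shared regions in each library for the 12 members with the largest gaps, with 1 point per library and the 2 conditions coloured. In each the 3 +dox points lie to the left of the 3 no dox points by at least 13.2 points, and the label is the gene with the nearest start.

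The members with the highest no dox ranks changed little in rank in most cases, and mean log2 CPM was lower with dox in 3 of the 8. An intron of BC034090 (chr1:155232151-155235100) stood at 99.9, 99.9 and 99.8 without dox and at 99.6, 99.7 and 99.6 with dox. Its signal was 179, 188 and 77.1 CPM and then 288, 224 and 126 CPM, so the groups overlapped by signal. The region of Has2, which encodes a hyaluronan synthase (chr15:56691851-56695400), stood at 99.0, 98.7 and 99.1 and then at 95.7, 97.5 and 97.7. The promoter of Ppp1r14b was also among these 8.

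At 3 of these 8 the drop lay mainly in +dox replicate 1. The intergenic region 63327 bp from Tas1r2 (chr4:139716151-139717400) stood at 98.2, 98.5 and 99.0 and then at 46.2, 92.1 and 96.3. Its signal was 61.0, 77.2 and 52.3 CPM and then 16.0, 55.6 and 61.3 CPM. The region in Gm26660 and Zmiz1os1 (chr14:25359301-25361350) stood at 99.2, 99.5 and 99.3 and then at 84.3, 98.8 and 98.3. The promoter of 2310022A10Rik (chr7:27559751-27561850) stood at 96.9, 98.0 and 98.0 and then at 82.4, 95.7 and 95.3. Replicate 1 was the lowest of the +dox libraries in each.

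Myod1 itself was a member (chr7:46375801-46377850). Its percentiles were 96.1, 100 and 96.2 without dox and 95.3, 91.2 and 71.4 with dox. The signal was 43.5, 1324 and 28.7 CPM without dox and 95.2, 52.8 and 18.9 CPM with dox, so no dox replicate 2 stood far above the other 5 libraries and the groups overlapped. The maxima lay 402 to 502 bp from the start, in the coding exon. The region was the highest peak of the list in no dox replicate 2 and had ranks between 189 and 1631 in the others. The cells also hold a transgene with this coding sequence, and its part in the signal was not tested.

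Nfix had more members by nearest start than any other gene. It encodes a nuclear factor I protein known in muscle for the switch from embryonic to fetal myogenesis. Of 7 shared regions with their nearest start in Nfix (GRCm38, chromosome 8 from 84699876 to 84800344, minus strand), 6 were members and 0 rose. From the 5′ end of the gene inward, the members lay at -0.157, 6.37, 20.0, 25.5, 92.0 and 95.4 kb, and the region that was not a member at 15.8 kb. The gene also spans 4 shared regions whose nearest start is that of G430095P16Rik, of which 1 was a member, so that 6 of the 10 shared regions inside the gene were members and 0 rose. That member (chr8:84740151-84747650) stood at 34.2, 48.0 and 57.1 without dox and 33.0, 23.7 and 31.2 with dox.

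The first of them (chr8:84796701-84800950) stood at 38.7, 21.4 and 21.1 without dox and 17.6, 3.94 and 1.99 with dox. The intronic region shown above (chr8:84792501-84795300) stood at 29.4, 21.4 and 30.4 and then at 8.83, 2.41 and 4.21. The region at 92.0 kb (chr8:84706351-84715200) was 8850 bp wide and stood at 24.8, 13.3 and 30.4 and then at 0.537, 2.41 and 1.99. These were weak sites in every library and weaker in rank with dox. The region at 25.5 kb (chr8:84771501-84776500) was the exception by height, at 91.4, 90.5 and 96.5 and then 84.7, 82.4 and 82.3. The region at 20.0 kb went from 6.59, 25.5 and 24.3 to 0.537, 3.94 and 5.44, and that at 95.4 kb, in an untranslated region, from 15.3, 25.5 and 18 to 4.73, 2.41 and 1.99. The region that was not a member overlapped, with 29.4, 25.5 and 12.2 without dox and 20.4, 48.0 and 9.50 with dox.

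Mean log2 CPM was lower with dox in 5 of the 6 Nfix members, and 4 of the 6 fell in rank of total signal. Apart from the region at 25.5 kb, the maxima rested on 8 to 28 alignments. The 6 maxima of a member lay between 200 and 5650 bp apart, and 1 of the 6 members was a single peak in every list. The rank at Nfix therefore compared different places within a region in most members. With any 1 library left out, 6 of the 7 regions were members, and leaving out a library can only add members. Members also lay near the gene, at Gadd45gip1 (chr8:84831751-84832950), Mir1668 (chr8:83720151-83726200) and Tecr (chr8:83569001-83574300 and chr8:83593651-83595100). The one at Mir1668 was 6050 bp wide and rested on 14 to 24 alignments. The first at Tecr was 5300 bp wide and rested on 8 to 14. Whether the falls at Nfix belong to a wider stretch of the chromosome was not tested.

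**Figure D3:**
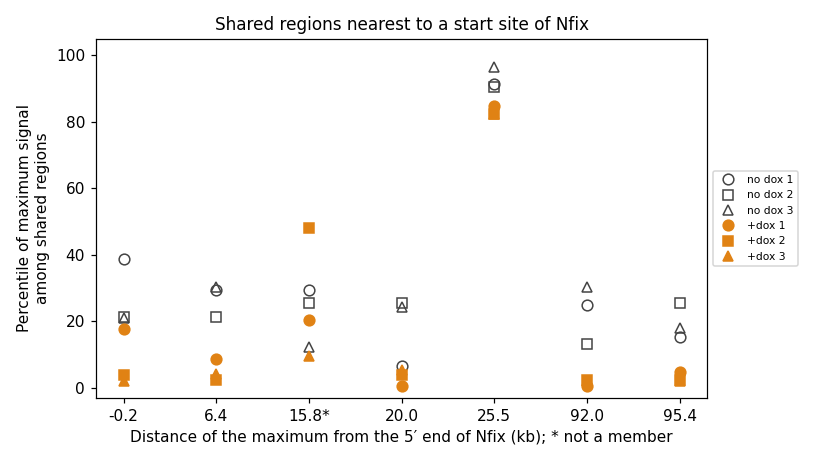
Percentile of the 7 shared regions with their nearest start in Nfix in each library against distance in kb from the 5′ end of the gene, with 1 point per library and the conditions coloured. At 6 of the 7 positions the +dox points lie below the no dox points, and at 15.8 kb they overlap.

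Other genes held fewer. By nearest protein-coding gene, Coro1c, which encodes an actin-binding coronin, held 3 members of 4 shared regions. At its promoter the percentiles were 79.4, 87.2 and 89.5 without dox and 76.0, 79.3 and 74.3 with dox. BC034090 held 2 of 4, its promoter region (chr1:155229351-155231000) going from 90.0, 95.5 and 93.1 to 74.2, 77.1 and 74.3. Zmiz1, a coactivator gene, was the nearest protein-coding gene to 13 shared regions, of which 2 were members. Both of these lay outside the gene, at -232 and -99.0 kb from its 5′ end. The mean percentile was lower with dox in 11 of the 13. Coro1c, the promoter of BC034090 and Zmiz1 were chosen after their values had been seen. Of all members, 117 had another shared region within 50 kb, 21 another member and 8 a rising region.

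Of muscle gene lists, some had members and some none. Over all shared regions 4.44% fell and 3.56% rose, and with at most 31 regions in a list 1 region moves its share by several points. The lists that follow were drawn up by function with earlier results of these data known, so their shares are a description with no test. Each region was given to its nearest start. Among myogenic regulators 3 of 30 shared regions fell (10%) and 3 rose, the latter at Id1 (2 regions) and Id3, inhibitors that take E proteins from MyoD1. The 3 that fell were at Myod1, at Pax7, the satellite cell factor, and at Zeb1, a repressor that binds E-boxes. The Pax7 intron (chr4:139769851-139772350) stood at 93.4, 94.5 and 84.3 without dox and 71.7, 82.9 and 83.7 with dox. The region 75545 bp from Zeb1 stood at 92.6, 90.3 and 85.1 and then at 79.3, 85.1 and 78.0. Both gaps were under the median gap, at 0.59 and 0.072 points. The median of the mean percentile with dox minus that without was 2.98 points over the 30 regions, against 0.19 over all shared regions.

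Among fusion, junction and calcium genes 1 of 17 shared regions fell (5.88%) and 0 rose. It was the promoter of Chrna1, the alpha subunit of the muscle acetylcholine receptor (chr2:73578551-73581000). Its percentiles were 95.5, 95.3 and 95.1 without dox and 88.4, 94.9 and 90.1 with dox. Its signal was 40.7, 44.7 and 25.1 CPM without dox and 57.5, 71.7 and 37.6 CPM with dox, and overlapped. Among contractile and sarcomere genes 0 of 12 shared regions fell or rose.

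Among adhesion genes 3 of 24 shared regions fell (12.5%, against 4.44% of all) and 0 rose. Itga11 and Itga3 encode integrin alpha chains for collagen and laminin, and Cdh13 a cadherin held to the membrane by a lipid anchor. The Itga11 intron (chr9:62731951-62733450) stood at 72.1, 67.5 and 62.6 without dox and 33.0, 35.1 and 53.1 with dox. The Itga3 intron (chr11:95072251-95073450) stood at 58.0, 66.2 and 54.0 and then at 23.1, 21.2 and 47.4. The Cdh13 promoter (chr8:118283301-118287700) stood at 87.6, 88.5 and 91.4 and then at 74.6, 79.9 and 80.2. All 3 also fell in rank of total signal. Signal itself was not lower: the mean of log2 CPM, +dox minus no dox, was 0.098 at Itga11, 0.038 at Itga3 and 0.41 at Cdh13. The median of the mean percentile with dox minus that without was -1.17 points over the 24 regions, against 0.19 over all shared regions.

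Of the other lists none had a member. The AP-1 and immediate early genes had 31 shared regions, of which 1 rose, at Egr1. The growth factor and signalling genes had 17, of which Wnt9a and Notch1 rose. The cell cycle genes had 13 and none rose, and the matrix and collagen genes had 24, of which 1 rose, at Lama5.

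Members lay less at promoters than shared regions did. Within 1 kb of an annotated start were 90 members (41.9%, 95% Wilson interval 35.5 to 48.5), against 49.4% of rising and 55.2% of all shared regions. Introns held 78 members (36.3%) and 24.5% of all shared regions, and intergenic sequence held 43 members (20.0%) and 17.7%. Put the other way, 3.37% of shared promoter regions, 6.59% of intronic and 5.01% of intergenic regions were members. The median distance to a start was 2245 bp for members and 494.5 bp for all shared regions. These shares rested on +dox replicate 1. With that library left out the promoter share was 60.0% and the intron share 23.9%, and with +dox replicate 3 left out they were 27.6% and 43.4%.

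Close to the maximum CAGCTG was about as frequent in members as in all shared regions, and in wider windows it was more frequent. It lay within 100 bp of the median maximum in 103 members (47.9%, 95% Wilson interval 41.3 to 54.6), 47.7% of rising and 46.7% of all shared regions. Within 300 bp it was in 171 members (79.5%, 95% Wilson interval 73.6 to 84.4), 61.0% of rising and 66.3% of all shared regions. Over the whole region extended by 100 bp it was in 92.6% of members and 85.4% of all. Without +dox replicate 1 the share within 300 bp was 69.7%, and with any other library left out it ran from 74.6% to 82.0%. Of shared regions with CAGCTG within 100 bp 4.56% were members, and of those without it 4.34%. A CAGCTG lay within 1 kb in 90.7% of members and 83.9% of all shared regions, and the nearest was a median of 83 bp from the maximum in members and 76 bp in all shared regions. Away from promoters CAGCTG within 100 bp was held by 56.8% of members and 62.1% of all shared regions. CAGGTG or CACCTG was held by 17.7% of members and 18.3% of all, and the AP-1 motif TGANTCA by 12.1% and 13.4%. Motifs were searched on both strands of the same 200 bp windows.

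The GC box GGGCGG, to which Sp factors bind, was the motif with the largest difference. It was in 60 members (27.9%, 95% Wilson interval 22.3 to 34.3), 45.3% of rising and 44.2% of all shared regions. The Ets motif CCGGAAG was in 2.79% of members and 6.12% of all. The median GC content was 60.0% in members and 61.5% in all shared regions, and the median ratio of observed to expected CpG was 0.35 and 0.51. In 4 classes of GC content from low to high, bounded at 57%, 61% and 67%, 4.33%, 7.80%, 3.76% and 2.19% of shared regions were members. The GC box share too rested on +dox replicate 1: it was 44.5% without that library and 17.6% without +dox replicate 3. CCAAT, to which NF-Y binds, was in 24.7% of members and 26.7% of all shared regions. The E-box CACGTG, bound by Myc and its relatives, was in 7.44% and 5.93%. The Tead motif GGAATG was in 11.6% and 11.9%.

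**Figure D4:**
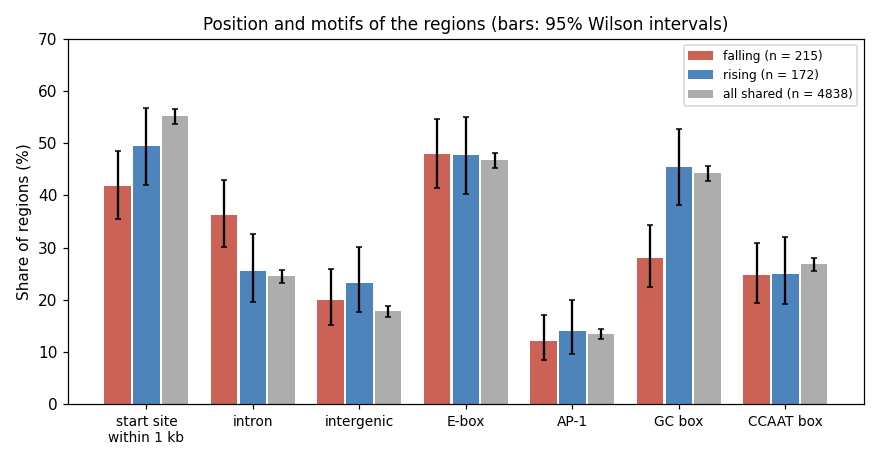
Share in percent of falling, rising and all shared regions by position and by motif, with 95% Wilson intervals that cover counting error only. Falling members lie below all shared regions at promoters (41.9% against 55.2%) and for the GC box (27.9% against 44.2%), and beside them for CAGCTG within 100 bp.

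Position, CAGCTG and GC content were then compared over all 4838 shared regions with 1 value per library. These values come from the percentiles that chose the members, so they too are a description with no test. The median percentile at promoters minus that elsewhere was -9.54, -15.9 and -28.9 points without dox. With dox it was 12, -8.71 and -31.4 points, and the groups overlapped. The difference of the means was 8.73 points. For regions with CAGCTG minus those without, the values were 23.8, 24.5 and 21.4 points and then 13.2, 23.2 and 27 points, a difference of -2.13. The Spearman correlation of percentile with GC across regions, a description of each library, was -0.062, -0.14 and -0.42 and then 0.29, -0.014 and -0.47, a difference of 0.14. In the last 2 the groups overlapped too. Of the +dox libraries, replicate 1 ranked promoters and GC-rich regions highest and replicate 3 ranked them lowest.

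Members also differed among themselves by position. Intergenic members ranked highest, with a median of the mean percentile of 75.4 without dox and 56.5 with dox. Intronic members had 67.8 and 45.3, and promoter members 59.1 and 39.0. A gap of 5 points was reached by 31 of 90 promoter, 31 of 78 intronic and 8 of 43 intergenic members. Members with CAGCTG ranked above those without, at 70.3 and 58.1 without dox, as did all shared regions with CAGCTG, at 62.5 to 62.9 against 38.5 to 41.2. Promoters likewise ranked lower among all shared regions without dox, at 36.1 to 46.0 against 55.6 to 65.0 elsewhere. Of the members, 27 of 103 with CAGCTG reached a gap of 5 points against 44 of 112 without. By chromosome the share of shared regions that were members ran from 1.67% on chromosome 3 (3 of 180) to 9.40% on chromosome 16 (11 of 117).

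In shape members resembled the shared regions. They had a median width of 1700 bp, against 1800 bp for all shared regions, and 164 of the 215 (76.3%) were a single peak in every list, against 75.7% of all. The 6 maxima lay within 500 bp in 192 (89.3%) and 85.6%. Ranked by total signal, the coverage summed over the peak, 88 of the 215 (40.9%) were also members, and the mean percentile was lower with dox in 209 (97.2%), against 49.5% of all shared regions. Total and maximum come from the same reads, so this is a description.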

How the data were processed

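MyoD1 was mapped by CUT&RUN in 6 libraries, 3 no dox and 3 +dox, grouped by the labels. The authors aligned reads to mm10 (the build GRCm38) with nf-core/cutandrun, removed blacklisted regions, scaled coverage to CPM and called peaks per library with SEACR in relaxed mode. The submitters' processing notes also name deepTools. The deposited signal values are the total and the maximum coverage of each peak in CPM, used here as deposited. Intervals kept to steps of 50 bp, and maxima were whole multiples of 1 alignment (within 0.01 of a step for maxima of up to 100 alignments), which gave the depths.

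Overlapping or touching peaks of the 6 lists were merged, and tied regions took the mean percentile. Places and starts came from GENCODE M21 and motifs and sequences from RefSeq GRCm38.p6. A promoter was within 1 kb of a start, and motifs were sought within 100 bp of the median maximum. The code for the rule was checked on simulated lists with large planted changes. This does not show how the rule performs at the depths of these libraries. The members and lists were chosen with earlier results of these data known.

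Regions were named by rule: the 12 largest gaps, the 8 highest no dox ranks, 3 on each side of the threshold, list genes and genes with 3 or more members, of which 1 region is not reported here. Exact permutation tests over the 20 assignments of libraries were planned for 3 values per library. They rest on the percentiles that chose the members and could not go below 0.1, so their p-values are not given. Same-numbered libraries deviated together (correlations of deviations 0.425, 0.271 and 0.608). No dox replicate 1 also correlated with +dox replicate 2 (0.290), and no dox replicate 2 with +dox replicate 1 (0.168). The check thus set replicate 3 apart but did not clearly tell pairs 1 and 2 from each other. Pairing by number is therefore a hint from the data and is not stated in the labels. Alternatives were another signal, rank, gap, window or promoter distance, single peaks, close maxima and lists of equal length. Others were each library left out, replicates 1 and 2 only, and the replicate block. Left out were the 3 wild-type libraries, not analysed here. Python 3.11.15, NumPy 2.4.6, pandas 2.3.3, SciPy 1.17.1 and pysam 0.24.0 were used.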

Additional observations from a re-analysis of the deposited data

How the results depend on the processing

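The number of falling regions depended on the setting. With the replicate number as a block (+dox below no dox in each of the 3 pairs) it was 777, all 215 members among them, and with replicates 1 and 2 only it was 978. With 1 library left out it ran from 327 (without +dox replicate 2) to 756 (without +dox replicate 3), where the wider sets follow from fewer values to keep apart. It was 460, 338 and 412 without no dox replicate 1, 2 or 3, and 402 without +dox replicate 1. With a gap of at least 5 points it was 71, with percentiles among all peaks of a list 2, and with CPM as deposited 0. Among all peaks of a list the members had median percentiles of 80.5, 88.0 and 87.6 without dox. With dox these were 68.1, 78.2 and 94.0, the last in the list of 53661 peaks. With lists of equal length the number was 172 of 3638 shared regions (4.73%). Ranks of total signal gave 216, of which 88 were members.

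The CAGCTG share was 38.0% with the gap of 5 points, 57.4% with windows around maxima, 55.4% with replicates 1 and 2, 92.6% over the whole region extended by 100 bp (85.4% of all shared regions) and 79.5% within 300 bp (66.3% of all). It ran from 41.3% to 54.4% with 1 library left out. The promoter share was 100% among all peaks of a list (2 regions), 31.7% with replicates 1 and 2 and 34.9% within 500 bp, and ran from 27.6% (without +dox replicate 3) to 60.0% (without +dox replicate 1). The median GC content was 67% among all peaks of a list, 57.5% with replicates 1 and 2 and 58.5% with the replicate block, and ran from 57.0% to 61.5% with 1 library left out. The replicate block moved no other value that far.

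Without +dox replicate 1 the rank difference changed sign at promoters (-1.95 points), for CAGCTG (1.84 points) and with GC (-0.037). With 1 library left out these ran from -1.95 to 19.8 points, from -5.06 to 1.84 points and from -0.037 to 0.34. The cause was not tested. The alternatives for the intron and GC box shares, for CAGCTG within 300 bp and for Nfix were chosen after seeing the data. Depth limits what can be said of a single region, as the counting intervals show.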
